A study of Mus musculus with 8 samples.

Results

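The effect of HDAC3 inhibition on the chromatin of TLR4-stimulated macrophages was read by comparing ATAC-seq libraries from WT BMDMs given RGFP966 and KLA with libraries from WT BMDMs given KLA alone. All 9698 merged peaks of the WT table were used, out of 34565 peaks counted in the series, and the comparison rests on 4 of its 8 libraries, 2 for each condition. The BMDMs were grown with M-CSF from the bone marrow of WT C57BL/6 mice aged 8 to 12 weeks, serum-starved for 12 h, and then treated for 6 h. The KLA group received 100 ng/mL KLA, and the RGFP966 + KLA group received the same KLA after RGFP966 had been added with the starvation, at a concentration written as 5 mM. A Veh group of 2 WT libraries, also collected at 6 h, entered the fit and is printed for reference, while 2 Veh libraries from NCoR f/f BMDMs were not used here. The titles and library names of the RGFP966 + KLA libraries name the inhibitor, but their treatment entry names only KLA. Whether a condition's 2 libraries are separate mice, separate cultures or neither is not given in the sources used here, so p-values measure the spread between these libraries, which may be technical.

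KLA (Kdo2 lipid A) is the part of bacterial lipopolysaccharide that activates TLR4, and TLR4 signals through MyD88 and TRIF to NF-κB, AP-1 and interferon regulatory factors, which open enhancers and promoters of inflammatory genes. HDAC3 is a histone deacetylase held by the corepressor NCoR, and RGFP966 is a small molecule that inhibits it. ATAC-seq inserts sequencing adapters into accessible DNA with a transposase, so the tags in a peak report how open that stretch of chromatin was. A peak is named here by the gene with the nearest TSS, and no expression of that gene was measured in these libraries.

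The 4 compared libraries held between 116733 and 202523 tags in peaks, which was between 1.44% and 1.84% of all their tags, and the median peak held between 10 and 17 tags. KLA replicate 2 was the shallowest. Levels are given as tags per 100000 tags in peaks, so that a level of 1 stands for about 1 or 2 tags. A level therefore carries a large counting error at most peaks, and intervals cover counting error only because the tags carry no molecular identifiers and may be copies of the same molecule. Of the markers fixed for macrophages, 5 of 10 had a merged peak (among them Csf1r, Cd68, Itgam and Fcgr1), and their summed level lay between 41.1 and 58.8 in the KLA libraries and between 53.0 and 62.2 in the RGFP966 + KLA libraries. No merged peak was assigned to the macrophage markers Adgre1, Mertk, Spi1, Cd14 and Lyz2, nor to any of the 7 T cell, 5 B cell or 5 fibroblast markers. The neutrophil marker Camp had a level of 11.8 and 10.3 with KLA and 15.8 and 17.0 with RGFP966 + KLA, the other 6 neutrophil markers had no peak, and a part of neutrophils in any result was not tested.

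Few peaks passed the test for a difference between RGFP966 + KLA and KLA. With so few tags per peak and 2 libraries per condition, a change can go uncalled. With library sizes set to the total tags in peaks, 23 peaks were higher and 10 lower, together 0.34% (edgeR, Benjamini-Hochberg adjusted p under 0.05 over all peaks and fold change over 2), that is 0.237% and 0.103% of the peaks tested. An unadjusted p under 0.05 was reached by 768 peaks on the higher side (7.92%) and 575 on the lower side (5.93%). Among the higher peaks were the promoters of Bhlhe40, Mier1, Fah, Mfge8, Tob1 and Slco5a1, and among the lower ones the promoters of Tor1aip1, Med14, Mtf1 and Mapk9 and intronic peaks of Nfkb1 and Cd83. The fold change ran from 2.56 to 20.6 in the higher peaks and from 3.04 to 7.34 in the lower ones. In these bulk libraries, fewer cells with an open site and less opening per cell cannot be told apart. The plot of mean levels shows the called peaks, most of which lay at the low end when both conditions are averaged. In the condition where they were more open, their median level was slightly above that of all peaks. It was 9.33 in the higher peaks with RGFP966 + KLA (8.56 over all peaks) and 9.39 in the lower peaks with KLA (8.51 over all peaks).

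**Figure D1:**
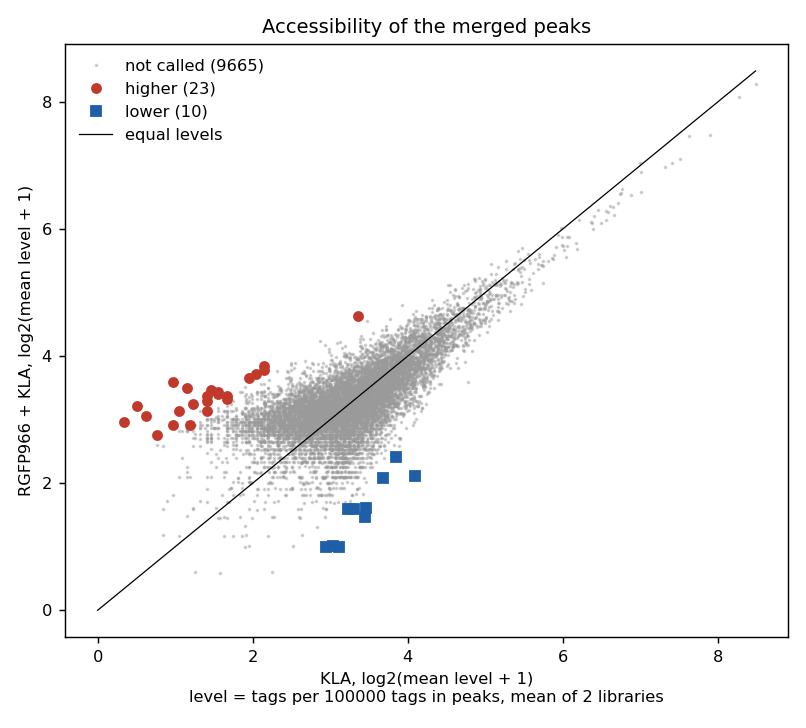
Each dot is a merged peak, placed by its mean level over 2 KLA libraries (horizontal axis) and 2 RGFP966 + KLA libraries (vertical axis), both on a log2 scale after adding 1 to the level. The 23 higher peaks (red circles) reached at most a mean level of 9.26 with KLA, the condition where they were lower. The 10 lower peaks (blue squares) reached at most 4.30 with RGFP966 + KLA, the condition where they were lower. The strongest peaks lie slightly under the line of equal levels.

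These counts depended on the tool, the scaling and single libraries. DESeq2 called 0 peaks, with 144 peaks at an unadjusted p under 0.05 with its own size factors. With loess offsets along abundance the split turned, to 18 higher and 73 lower (19.8% higher, against 69.7%), and with library sizes from all tags it was 47 higher and 6 lower (88.7% higher), a scaling that moved the median change of all peaks by 0.18 on the log2 scale. TMM factors gave 22 higher and 15 lower (59.5% higher). Leaving out KLA replicate 1 left 0 higher and 2 lower peaks, KLA replicate 2 left 5 and 4, RGFP966 + KLA replicate 1 left 0 and 0 (edgeR, with 1023 peaks at an unadjusted p under 0.05), and RGFP966 + KLA replicate 2 left 4 and 1. Leaving out Veh replicate 1 gave 40 higher and 20 lower peaks, and leaving out Veh replicate 2 gave 40 and 19. Every value below is from the fit with all 6 WT libraries and total tags in peaks, unless another is named.

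The sequences of the 3 higher and 3 lower peaks with the smallest p are shown. The 3 higher ones held few tags with KLA, as given below. They are read from the plus strand of mm10 (GRCm38), and capitals mark matches, on either strand, to the AP-1 motif TGACTCA, the PU.1 motif GAGGAAGT, an IRF motif, the SP1 motif GGGGCGGG or the NFkB-p65 consensus.
Gm15735 (higher, distal, in an intron of a noncoding transcript, chr14:122747910-122748117): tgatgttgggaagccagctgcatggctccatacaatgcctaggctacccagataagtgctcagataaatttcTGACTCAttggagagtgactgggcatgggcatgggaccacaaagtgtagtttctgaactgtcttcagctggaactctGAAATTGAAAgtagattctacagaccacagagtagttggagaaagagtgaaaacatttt
Cables2 (higher, distal, intergenic, chr2:180275874-180276132): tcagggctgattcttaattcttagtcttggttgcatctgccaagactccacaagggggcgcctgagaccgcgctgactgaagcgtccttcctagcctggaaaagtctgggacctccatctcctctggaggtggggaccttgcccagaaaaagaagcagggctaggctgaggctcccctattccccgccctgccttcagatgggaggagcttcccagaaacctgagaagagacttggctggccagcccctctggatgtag
Slco5a1 (higher, promoter class, CpG island, chr1:12992247-12992514): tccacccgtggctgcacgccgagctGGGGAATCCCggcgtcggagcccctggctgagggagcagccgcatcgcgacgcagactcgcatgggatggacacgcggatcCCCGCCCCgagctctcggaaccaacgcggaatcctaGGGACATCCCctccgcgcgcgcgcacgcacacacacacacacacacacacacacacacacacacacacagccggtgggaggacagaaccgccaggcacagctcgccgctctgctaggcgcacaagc
Tor1aip1 (lower, promoter, the part of the peak outside exons, chr1:156036555-156036609): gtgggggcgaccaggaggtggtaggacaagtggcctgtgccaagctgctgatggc
Atp1b3 (lower, distal, intergenic in an MTEa LTR repeat, chr9:96399659-96399862): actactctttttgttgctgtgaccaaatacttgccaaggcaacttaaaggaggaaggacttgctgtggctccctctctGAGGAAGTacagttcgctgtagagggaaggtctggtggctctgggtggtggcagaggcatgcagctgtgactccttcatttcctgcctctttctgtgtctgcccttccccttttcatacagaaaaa
Nfkb1 (lower, intron, in an ORR1C2 LTR repeat, chr3:135672386-135672650): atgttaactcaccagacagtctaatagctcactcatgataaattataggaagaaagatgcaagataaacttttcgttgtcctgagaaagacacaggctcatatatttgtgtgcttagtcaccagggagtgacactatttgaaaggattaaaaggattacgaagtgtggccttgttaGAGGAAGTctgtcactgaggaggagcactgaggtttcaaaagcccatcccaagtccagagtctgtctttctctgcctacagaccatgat

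The Gm15735 peak held an AP-1 and an IRF match, the Slco5a1 peak had an SP1 match and 2 NFkB-p65 matches, and the Atp1b3 and Nfkb1 peaks each held the PU.1 letters. In 200 bp at the centre of the peaks, TGACTCA was found in 15.7% of the 9527 peaks searched, in 30.4% of the 23 higher peaks and in 20.0% of the 10 lower peaks. GAGGAAGT was found in 7.52% of the peaks searched, 4.35% of the higher and 30.0% of the lower, and the NFkB-p65 consensus in 4.90%, 13.0% and 0%. With 23 and 10 peaks these shares move by several points with each peak. Over the larger groups with an unadjusted p under 0.05, the AP-1 letters were in 24.5% of the 768 higher peaks and 12.8% of the 563 lower peaks searched. Of the 768 higher peaks, 575 had been called as peaks in RGFP966 + KLA alone. Of all 575 lower peaks, 528 had been called as peaks in KLA. Most of these peaks were thus chosen through the libraries where they are high, and the shares are a description. Distal peaks carried TGACTCA far more often than promoter peaks (28.4% against 3.79%), and the higher group was richer in distal peaks. Among distal peaks alone the median log2 fold change was 0.20 in the 1310 with TGACTCA and 0.07 in the 3311 without. Of the 4716 distal peaks, 1846 had been called as peaks in RGFP966 + KLA alone, so these medians are a description too. A link of AP-1 to the inhibitor was not tested. For the other motifs the share of the searched peaks with a match was 10.9% for C/EBP (TTGCNNAA), 2.50% for IRF, 3.89% for ETS (CCGGAAGT, which shares its last letters with the PU.1 motif), 18% for SP1, 17.3% for NF-Y (CCAATC), 1.09% for NRF1 and 0.88% for the CTCF consensus. A match is a description of the letters and not a bound site.

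Among the higher peaks, the promoter of Mier1 had the most tags. Mier1 encodes a nuclear corepressor that binds class I histone deacetylases. Its peak, at 365 bp from the TSS, had a level of 6.98 and 4.13 with Veh, 9.09 and 9.42 with KLA, and 21.7 and 25.7 with RGFP966 + KLA (17 and 11 tags against 44 and 50). Both RGFP966 + KLA libraries were more than 2 times above both KLA libraries, with a log2 fold change of 1.35 ± 0.30 (SE, adjusted p = 0.0191).

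At the promoters of Bhlhe40, Fah and Mfge8 the KLA libraries lay under Veh as well as under RGFP966 + KLA. Bhlhe40 encodes a basic helix-loop-helix repressor that shapes cytokine output of macrophages and T cells. The peak 669 bp upstream of its TSS had a level of 14.0 and 14.9 with Veh, 2.14 and 1.71 with KLA, and 8.89 and 10.8 with RGFP966 + KLA (log2 fold change 2.27 ± 0.51, adjusted p = 0.0246). Fah encodes the last enzyme of tyrosine breakdown, and its promoter had 7.75 and 5.78, then 1.60 and 1.71, then 8.89 and 8.75 in the same order (2.37 ± 0.54, adjusted p = 0.0276). Mfge8 encodes a secreted bridge between apoptotic cells and phagocytes, and its promoter had 4.65 and 7.43, then 3.21 and 2.57, then 12.3 and 10.8 (1.94 ± 0.45, adjusted p = 0.0286). In each of these 3 peaks the ranges of the KLA and RGFP966 + KLA libraries did not overlap. That held for all 23 higher peaks, and for 25.7% of all peaks on this side, so it adds nothing to the call. Over all 23 higher peaks, both Veh libraries were above both KLA libraries in 13 and under both in 4. The KLA libraries are shared by these comparisons, so a low KLA value enters each of them and nothing is read from these counts.

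Several of the largest fold changes rest on very few KLA tags. In 7 of the 23 higher peaks the KLA libraries together held 3 tags or fewer. The distal Cables2 peak had 0 and 1 tags with KLA and 19 and 14 with RGFP966 + KLA, a depth-scaled tag ratio of 25.3 (95% exact interval 4.23 to 1028), with 3 and 6 tags at Veh. Cables2 encodes a substrate of the kinases CDK5 and ABL. The Nr2f1 peak had 1 and 0 tags with KLA and 16 and 11 with RGFP966 + KLA (ratio 20.7, interval 3.41 to 846), and 2 and 9 at Veh. Nr2f1 encodes the orphan nuclear receptor COUP-TFI, and the peak lay 33235 bp from its TSS. The Gm15735 peak had 2 and 1 tags with KLA and 29 and 15 with RGFP966 + KLA (ratio 11.2, interval 3.60 to 56.5), and 2 and 1 at Veh. The RGFP966 + KLA libraries stood above all 4 others at the Cables2 and Gm15735 peaks, while at Nr2f1 a Veh library lay among them, and Veh was as low as KLA at Gm15735, a predicted gene.

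The Slco5a1 promoter peak, in a CpG island upstream of an organic anion transporter gene, had 3 and 1 tags with KLA and 26 and 15 with RGFP966 + KLA (log2 fold change 2.90 ± 0.55, adjusted p = 0.00633). The peak near Sdcbp2, which encodes the scaffold protein syntenin-2, had 2 and 0 against 14 and 15 tags (ratio 11.1, interval 2.81 to 96.0). Near Hhat, the acyltransferase of Hedgehog proteins, the KLA level was 1.60 and 1.71 and the RGFP966 + KLA level 9.38 and 9.27 (2.45 ± 0.52, adjusted p = 0.0191). In all 3, as in all 23 higher peaks, every RGFP966 + KLA library was above every KLA library. Near Ap1s3, a subunit of a clathrin adaptor and no relation of the AP-1 transcription factor, the levels were 1.07 and 5.14 with KLA and 11.9 and 12.4 with RGFP966 + KLA (2.17 ± 0.47, adjusted p = 0.0191). The intergenic peak nearest to H2afz, the gene of histone variant H2A.Z, had 4.28 and 2.57 against 15.3 and 11.3 (1.86 ± 0.42, adjusted p = 0.0246).

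The remaining 11 higher peaks had log2 fold changes between 1.81 and 2.99 and adjusted p between 0.0286 and 0.0466. They included an intronic peak of Ripk2, the kinase downstream of NOD receptors, with a level of 2.67 and 0 with KLA and 10.4 and 6.69 with RGFP966 + KLA. The promoter-class peak of Tob1, an antiproliferative gene, had 2 and 1 tags against 14 and 12. An upstream peak of the collagenase gene Mmp13 had 2.67 and 1.71 against 8.89 and 9.27. The others were assigned to Inpp4b, Rbpms, Pde6b, 1810026B05Rik, Mir7j, Gm17746, Rab11fip4os1 and 6530403H02Rik, and 5 of the 23 higher peaks lay more than 100 kb from the TSS that names them.

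**Figure D2:**
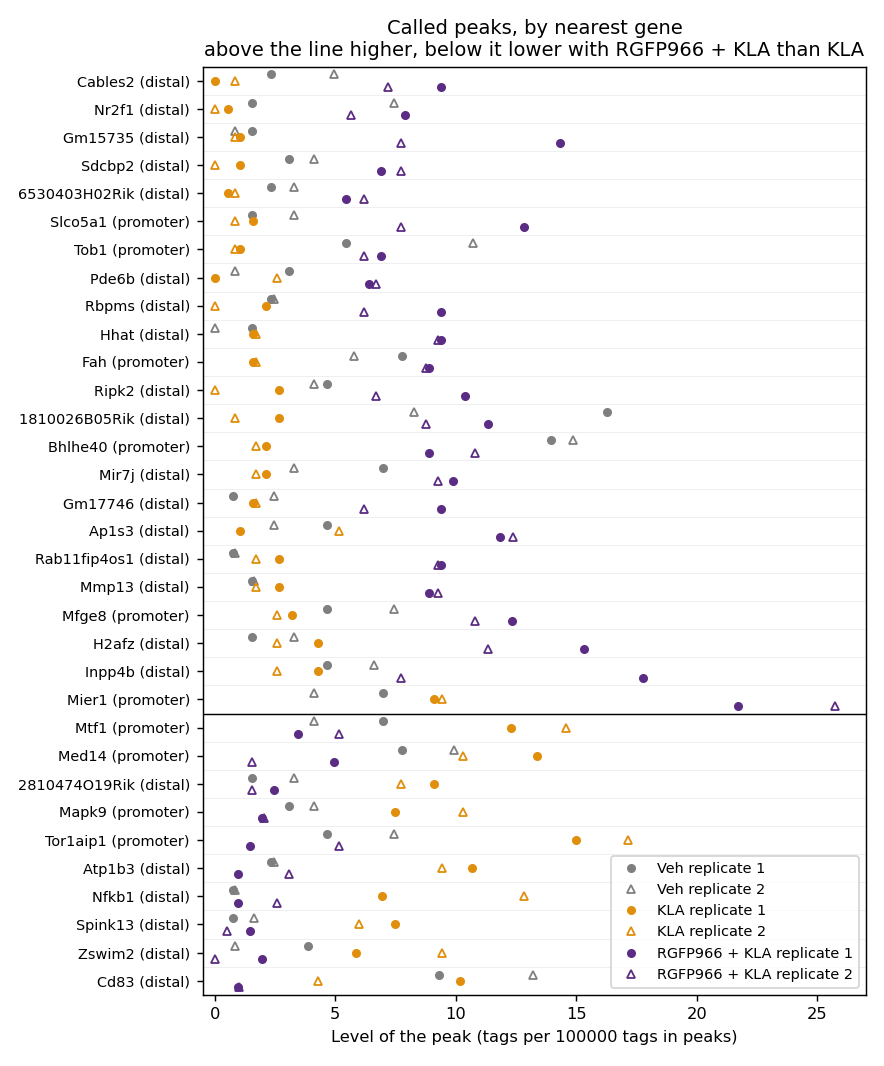
Level of each called peak (horizontal axis, tags per 100000 tags in peaks) in the 6 WT libraries, by nearest gene and class, ordered by fold change. Filled circles are replicate 1 and open triangles replicate 2. In every called peak the RGFP966 + KLA libraries (purple) lie beyond both KLA libraries (orange), above them in the 23 peaks over the line and below them in the 10 under it. Over all peaks the libraries did not overlap in 25.7% on the higher side and 20.1% on the lower side.

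The lower peaks were stronger in KLA, with mean levels between 6.74 and 16.1. At the Tor1aip1 promoter, 25 bp upstream of the TSS of a gene for an inner nuclear membrane protein, the level was 4.65 and 7.43 with Veh, 15.0 and 17.1 with KLA, and 1.48 and 5.15 with RGFP966 + KLA (log2 fold change -2.24 ± 0.41, adjusted p = 0.00322). The KLA libraries stood apart above the other 4. In 9 of the 10 lower peaks both Veh libraries were below both KLA libraries, the exception being Cd83. Of the 10, 8 had been called as peaks in KLA alone and not in Veh. That choice favours this order, so nothing is read from the count.

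Cd83 encodes a surface protein of activated dendritic cells and macrophages. Its intronic peak had 9.31 and 13.2 with Veh, 10.2 and 4.28 with KLA, and 0.988 and 1.03 with RGFP966 + KLA (-2.88 ± 0.62, adjusted p = 0.0191). KLA replicate 2 was far lower than KLA replicate 1, and both were above RGFP966 + KLA. The peak near Atp1b3, the gene of a sodium pump subunit, had 10.7 and 9.42 against 0.988 and 3.09 (-2.30 ± 0.47, adjusted p = 0.0136).

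Near Spink13, of a serine peptidase inhibitor family, the levels were 7.49 and 6.00 against 1.48 and 0.515 (-2.69 ± 0.54, adjusted p = 0.0191). Near Zswim2 they were 5.88 and 9.42 against 1.98 and 0 (-2.75 ± 0.60, adjusted p = 0.0191). The promoter of Med14, a Mediator subunit, had 13.4 and 10.3 against 4.94 and 1.54 (-1.87 ± 0.43, adjusted p = 0.0297). At all 3 the conditions did not overlap, as in all 10 lower peaks and in 20.1% of all peaks on this side.

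The promoter of Mtf1, the metal-responsive activator of metallothionein genes, had 12.3 and 14.6 against 3.46 and 5.15 (-1.60 ± 0.39, adjusted p = 0.0424). The promoter-class peak of Mapk9, which encodes the stress kinase JNK2, had 7.49 and 10.3 against 1.98 and 2.06 (-2.04 ± 0.48, adjusted p = 0.0330), and the distal peak near 2810474O19Rik had 9.09 and 7.71 against 2.47 and 1.54 (-2.04 ± 0.48, adjusted p = 0.0330). Of the 10 lower peaks, 4 lay in annotated repeats, those of Nfkb1, Atp1b3, Zswim2 and Mapk9, and so did 2 of the 23 higher peaks. The share of all peaks in repeats was not counted, so nothing is read from these counts.

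Nfkb1, which encodes the p50 subunit of NF-κB and its precursor, had the smallest p among the genes of the fixed lists. The called peak lay 19029 bp into the gene and had a level of 0.775 and 0.826 with Veh, 6.95 and 12.8 with KLA, and 0.988 and 2.57 with RGFP966 + KLA (1 and 1, 13 and 15, and 2 and 5 tags), a log2 fold change of -2.33 ± 0.49 (adjusted p = 0.0164). The RGFP966 + KLA values were near Veh and far under KLA. The other 4 Nfkb1 peaks did not pass the test, with log2 fold changes of -1.15 (28568 bp upstream), -0.61 (promoter), -0.29 (51179 bp) and -0.83 (84184 bp). Of the 5 peaks, 4 were called in the KLA set alone and the peak at 51179 bp in the KLA and RGFP966 + KLA sets, so they came into the table through the compared libraries. Both RGFP966 + KLA libraries were under both KLA libraries at the 5 peaks (20.1% of all peaks), from which nothing is read because the choice of peaks through KLA favours that direction. Pooled over the 5 peaks, the level was 6.98 and 11.6 with Veh, 40.1 and 52.3 with KLA, and 22.2 and 26.3 with RGFP966 + KLA. That difference of -0.89 ± 0.20 passed the adjusted p (0.0092) and stayed under the fold threshold of 2. Over the alternatives the pooled value ran from -1.11 to -0.61 and its adjusted p from 0.00242 to 1.00. The adjusted p was 0.0871 without KLA replicate 1, 0.248 without KLA replicate 2 and 0.169 without RGFP966 + KLA replicate 1.

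**Figure D3:**
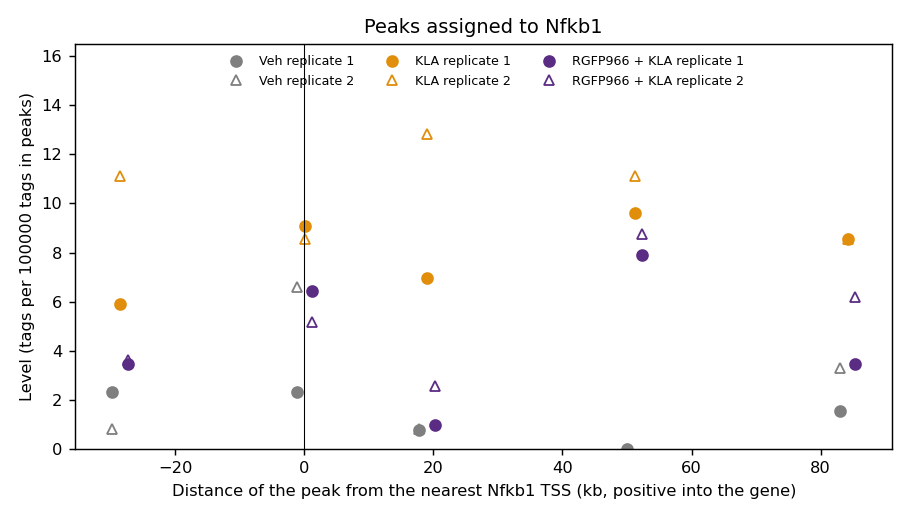
Level (vertical axis, tags per 100000 tags in peaks) of the 5 peaks assigned to Nfkb1 against their distance from the nearest Nfkb1 TSS (horizontal axis, kb, conditions shifted slightly sideways), in 2 libraries per condition. RGFP966 + KLA (purple) is under KLA (orange) at every peak, and the gap is largest at the called peak, where the levels are 0.988 and 2.57 against 6.95 and 12.8.

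Peaks were next split by class. The 4913 promoter peaks, within 2 kb of a TSS, held 6 higher and 4 lower calls, and the 4716 distal peaks held 17 and 6. The median log2 fold change was -0.01 in promoter peaks and 0.10 in distal peaks, beside 0.03 over all peaks. At an unadjusted p under 0.05, 5.17% of promoter peaks were higher and 5.78% lower, while 10.9% of distal peaks were higher and 6.15% lower. The share of the tags in peaks that lay in promoter peaks was 57.1% and 55.8% with KLA, 55.4% and 55.5% with RGFP966 + KLA, and 59.8% and 57.7% with Veh. The difference of -0.98 percentage points between RGFP966 + KLA and KLA gave p = 0.333 in a two-sided exact permutation test (n = 2 and 2), the smallest p that 2 against 2 libraries allow, and within the peaks of the Veh set it was 0.60 points in the other direction (p = 1).

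The change also went with the level of a peak. In the fifth of peaks with the lowest mean level over the 4 libraries, the median log2 fold change was 0.42 and 18 of the 23 higher and 6 of the 10 lower calls were made. In the fifth with the highest level the median was -0.08, with 1 higher and 0 lower calls. The 171 peaks outside chromosomes 1 to 19, X and Y, which include unplaced sequence, had a median of -0.23 and no call. They held 3.29% and 4.38% of the tags in peaks with KLA and 3.15% and 3.34% with RGFP966 + KLA. These ranges overlapped, and the Veh libraries held 3.20% and 4.52%.

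How a peak came into the merged table bears on these medians. The peaks are the union of sets called in Veh, KLA and RGFP966 + KLA, so the KLA and RGFP966 + KLA sets were chosen through the libraries compared here. Of the 23 higher peaks, 20 were in the RGFP966 + KLA set alone, and of the 10 lower peaks 8 were in the KLA set alone. The median log2 fold change was 0.46 over the 2908 peaks of the RGFP966 + KLA set alone and -0.70 over the 737 peaks of the KLA set alone, and these medians are a description, since the sets chose them. The 2753 peaks called in all 3 conditions had a median of -0.09 and no call.

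The 4743 peaks of the Veh set were chosen without the compared libraries. Their median log2 fold change was -0.05 in promoter and in distal peaks alike, and 175 (3.69%) were higher and 267 (5.63%) lower at an unadjusted p under 0.05. There were 4 calls among them, the Bhlhe40 promoter and the distal 1810026B05Rik peak on the higher side and the Med14 promoter and the Cd83 intron on the lower side. The 1810026B05Rik peak had 16.3 and 8.26 with Veh, 2.67 and 0.857 with KLA, and 11.4 and 8.75 with RGFP966 + KLA (2.31 ± 0.53, adjusted p = 0.0286), so the KLA libraries stood apart below the other 4. None of the 4 was called without RGFP966 + KLA replicate 1 or without RGFP966 + KLA replicate 2, where the Veh set had 0 edgeR calls and 364 and 367 peaks at an unadjusted p under 0.05. Without KLA replicate 1 the set had 0 higher and 1 lower call, and without KLA replicate 2 it had 0 and 2, while without Veh replicate 1 or Veh replicate 2 it had 7 and 6.

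**Figure D4:**
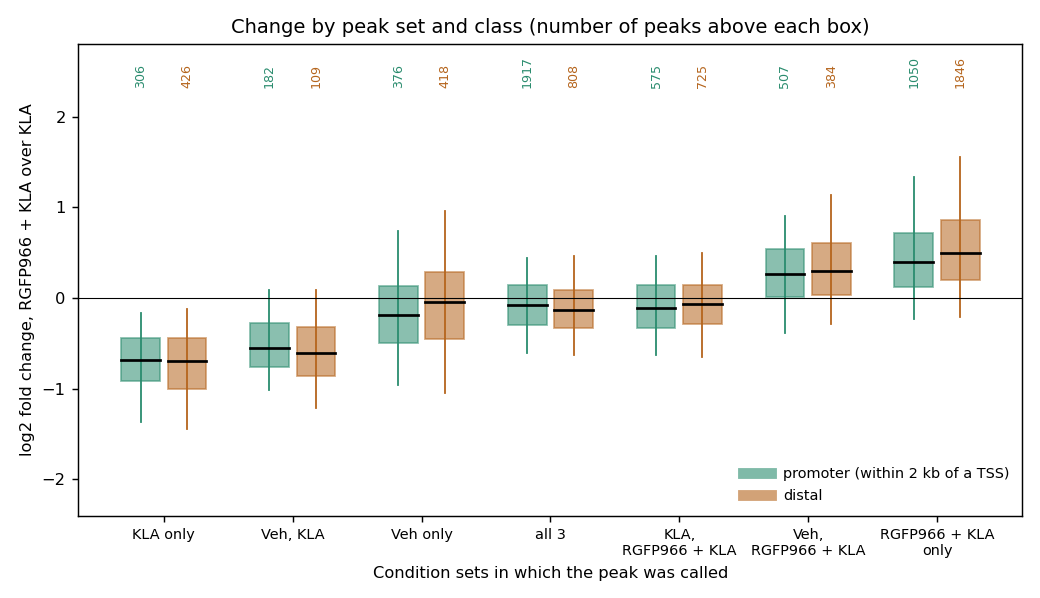
Log2 fold change of RGFP966 + KLA over KLA (vertical axis) by the condition sets in which a peak was called (horizontal axis), for promoter (green) and distal (brown) peaks. Boxes run from the 25th to the 75th percentile with the median as a black line, and lines run from the 5th to the 95th percentile. Peaks of the RGFP966 + KLA set alone sit above 0 and peaks of the KLA set alone below 0, while peaks of the Veh set alone and of all 3 sets lie close to 0.

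Tags were then pooled over all peaks of a gene, which raises the count behind each value. Of 6841 genes, 26 were higher (0.38%) and 13 lower (0.19%), together 0.57%, and an unadjusted p under 0.05 was reached by 553 on the higher side (8.08%) and 419 on the lower side (6.12%). Of these, 18 higher and 7 lower genes had 1 peak, so that their pooled value is that of the peak. DESeq2 called 0 genes, with 162 at an unadjusted p under 0.05. With all tags as library size 13 were higher and 1 lower (92.9% higher, against 66.7%), and with loess offsets 16 and 33 (32.7% higher). The edgeR count was 0 and 0 without KLA replicate 1 (with 696 genes at an unadjusted p under 0.05), 3 and 1 without KLA replicate 2, 3 and 3 without RGFP966 + KLA replicate 1, and 11 and 4 without RGFP966 + KLA replicate 2.

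Some of the called genes had several peaks. Il1f10, which encodes the interleukin-1 family member IL-38, had 2 intergenic peaks, neither called alone, with log2 fold changes of -1.46 and -1.47. Their pooled level was 3.88 and 3.30 with Veh, 19.2 and 20.6 with KLA, and 6.42 and 7.72 with RGFP966 + KLA (-1.47 ± 0.32, adjusted p = 0.00543). RGFP966 + KLA lay between Veh and KLA, apart from both. The 2 Tor1aip1 peaks pooled to 24.6 and 24.8 against 5.93 and 10.3 (-1.60 ± 0.30, adjusted p = 0.000371). The peaks of both genes were in the KLA set alone, that is, chosen through the libraries where they are high, so a shared direction of a gene's peaks is a description.

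Rbbp8, which encodes the DNA repair factor CtIP, had a peak at 0.775 and 0.826 with Veh, 16 and 15.4 with KLA, and 7.90 and 5.15 with RGFP966 + KLA (-1.26 ± 0.34, adjusted p = 0.0418). Tnfsf18, the gene of the GITR ligand, had 15.5 and 12 against 6.42 and 3.60 (-1.48 ± 0.38, adjusted p = 0.0255), close to Veh for KLA at 14.7 and 10.7. In both genes the RGFP966 + KLA libraries were under both KLA libraries, as in every lower gene and in 19.6% of all genes. The 2 peaks assigned to Swap70, which encodes an actin-binding signalling protein, lay 91925 and 157824 bp from its TSS. They pooled to 20.9 and 23.1 against 8.39 and 12.4 (-1.07 ± 0.29, adjusted p = 0.0431). The other lower genes were Pabpc2 (-1.17), Tmem104 (-1.19), Hspb9 (-1.76), Gm525 (-1.84), Med14, Mtf1, Zswim2 and 2810474O19Rik (-1.11), all values being log2 fold changes.

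On the higher side, Sqstm1, the autophagy receptor p62, had 3.74 and 6.00 with KLA and 16.3 and 11.3 with RGFP966 + KLA (1.57 ± 0.39, adjusted p = 0.0253). The promoter of Srp9, a subunit of the signal recognition particle, had 6.42 and 6.85 against 20.7 and 13.4 (1.37 ± 0.35, adjusted p = 0.0253). Both genes had RGFP966 + KLA apart above KLA, as had every higher gene and 25.3% of all genes. Pooled over 2 peaks, Tmem43 had 3.21 and 2.57 against 12.3 and 11.3 (1.97 ± 0.45, adjusted p = 0.0114), and Tmem72 had 4.81 and 6.00 against 15.8 and 16 (1.58 ± 0.37, adjusted p = 0.0115). Tmem38b had 6.95 and 3.43 against 18.8 and 13.9 (1.54 ± 0.36, adjusted p = 0.0121). The integrin gene Itga1 had 4.81 and 6.85 against 17.3 and 13.4 over 2 peaks (1.45 ± 0.37, adjusted p = 0.0253). Of the 26 higher genes, 25 had a peak of the RGFP966 + KLA set alone.

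The other higher genes without a called peak were Ankrd16, Hs3st3a1, Ptpn13, Nap1l2, Layn, Xrn1, 1700001K23Rik and Gm5106, with log2 fold changes from 1.16 to 2.30. Apart from Nfkb1, the genes past the adjusted p but under the fold threshold were Stk24 (1.00), Asap1 (1.00) and Hsd17b7 (-0.72).

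None of the pooled genes in the fixed lists was called, and the fold changes of the lists straddled the 0.03 median of all genes. Over all genes, 8.08% were higher and 6.12% lower at an unadjusted p under 0.05 (edgeR). The counts of each list below stand beside those shares, and no list was tested as a set. Among inflammatory cytokines and chemokines, 16 of 41 genes had a peak and the median was 0.00, with 2 genes higher and 2 lower at an unadjusted p under 0.05. Il12b and Il12a, the subunits of interleukin-12, had 23.5 and 15.4 with KLA against 12.3 and 12.4 with RGFP966 + KLA (-0.72 ± 0.28, adjusted p = 0.201), and 24.6 and 18 against 11.9 and 17.5 (-0.59 ± 0.26, adjusted p = 0.280). Il1a, the gene of interleukin-1α, had 2.67 and 6.00 against 6.91 and 8.75 (0.97 ± 0.44, adjusted p = 0.320). None of these 3 differences passed the test. The libraries of the conditions did not overlap, as in 19.6% of all genes on the lower side and 25.3% on the higher side. No merged peak was assigned to Tnf, Il6, Nos2 or Cxcl10.

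Among NF-κB subunits and regulators, 17 of 25 genes had a peak, and 1 of their 34 peaks was called (Nfkb1, lower), beside 0.34% of all peaks. The median log2 fold change was -0.18, with 0 higher and 3 lower genes at an unadjusted p under 0.05 (8.08% and 6.12% of all genes). The 3 were Nfkb1, the ubiquitin ligase gene Birc2 (-0.83 ± 0.33, adjusted p = 0.223) and Nfkbia, which encodes the inhibitor IκBα (17.6 and 24.8 against 14.3 and 11.8, -0.64 ± 0.28, adjusted p = 0.259). Tnip1, a further inhibitor, had -0.35 ± 0.25. The summed level of the list was 338 and 370 with KLA, 293 and 303 with RGFP966 + KLA, and 263 and 260 with Veh. Most Nfkb1 peaks were chosen through KLA, which favours lower values with RGFP966 + KLA, so these sums are a description.

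In the TLR4 pathway list, 22 of 33 genes had a peak and the median was -0.17, with 0 genes higher and 1 lower at an unadjusted p under 0.05. The lowest p was that of the adaptor Tab2, with 12.8 and 12 against 6.42 and 4.12 (-1.23 ± 0.38, adjusted p = 0.0873). Pooled over 2 promoter peaks, Mapk9 had -0.43 ± 0.22 and was not called, unlike its single lower peak. The adaptors Tirap and Ticam1 had 0.92 ± 0.48 and -0.48 ± 0.31, neither called.

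Among interferon and IRF/STAT genes, 21 of 40 had a peak, the median was -0.19, and 0 genes were higher and 4 lower at an unadjusted p under 0.05. These were Stat3 (15.5 and 17.1 against 8.89 and 8.75, -0.87 ± 0.32, adjusted p = 0.169), Stat2 (-0.96 ± 0.43), the antiviral exonuclease gene Isg20 (-1.15 ± 0.43) and Socs1, a feedback inhibitor of cytokine receptors (-0.45 ± 0.23). Their libraries did not overlap, as in 19.6% of all genes on the lower side. No merged peak was assigned to Ifnb1.

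In AP-1 and bZIP factors, 18 of 24 genes had a peak and the median was -0.04, with 0 higher and 1 lower at an unadjusted p under 0.05. Atf3, a stress-induced repressor, had 28.9 and 31.7 against 19.3 and 18 (-0.68 ± 0.23, adjusted p = 0.132), while Batf3 (0.51 ± 0.27), Jun (0.32 ± 0.21) and Jund (-0.54 ± 0.34) had values on either side of 0.

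The genes of the inhibited complex itself were sparsely covered. For the NCoR/HDAC3 complex and its partners, 7 of 24 genes had a peak, no merged peak was assigned to Hdac3 or Ncor1, the median was 0.23, and 1 gene was higher and 0 lower at an unadjusted p under 0.05. Tbl1xr1, a complex subunit, had 10.7 and 10.3 against 16.8 and 17.5 (0.70 ± 0.31, adjusted p = 0.264). The receptors Nr1d1 and Rara, partners of the complex, had -0.40 ± 0.26 and 0.34 ± 0.29. Among other HDACs, 6 of 16 had a peak with a median of 0.23 and 2 were higher at that p, with 0 lower. Hdac7 and Hdac4 had 1.09 ± 0.46 and 0.52 ± 0.23 (adjusted p = 0.258 and 0.261), while Hdac2 had -0.44 ± 0.41 and Sirt1 had 0.53 ± 0.53.

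Among LXR and SREBP lipid genes, 18 of 28 had a peak and the median was -0.01, with 2 higher and 3 lower at an unadjusted p under 0.05. Mylip, an LXR target that degrades the LDL receptor, had 11.2 and 12 against 3.46 and 5.66 (-1.33 ± 0.40, adjusted p = 0.0840), and Abca1, the cholesterol efflux transporter, had 44.4 and 30.8 against 27.2 and 25.2 over 4 peaks (-0.58 ± 0.20, adjusted p = 0.146). Neither passed the test. Insig1 and Idi1 had -0.44 ± 0.17 and 1.00 ± 0.46.

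The 3 osteoclast genes with a peak, of 15, were Dcstamp (-0.57 ± 0.28), Tnfrsf11a (0.86 ± 0.49) and Nfatc1 (-0.27 ± 0.33), with 0 higher and 1 lower at an unadjusted p under 0.05. In macrophage lineage factors, 20 of 27 genes had a peak, the median was -0.03, and 2 genes were higher and 3 lower at that p, with Mitf (-0.68 ± 0.25) and Klf6 (-0.63 ± 0.27) on the lower side and Fli1 (0.49 ± 0.21) on the higher side. Ribosomal protein genes, of which 19 of 48 had a peak, had a median of 0.03 with 1 higher and 1 lower gene at that p, and showed Rps24 at 0.56 ± 0.24, Rps23 at 0.49 ± 0.40, Rpl30 at 0.35 ± 0.32 and Rpl27 at -0.79 ± 0.39. Markers of dendritic cells had peaks at Zbtb46 (-1.60 ± 0.54, adjusted p = 0.144), Xcr1 (0.27 ± 0.41) and Flt3 (-0.08 ± 0.46).

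**Figure D5:**
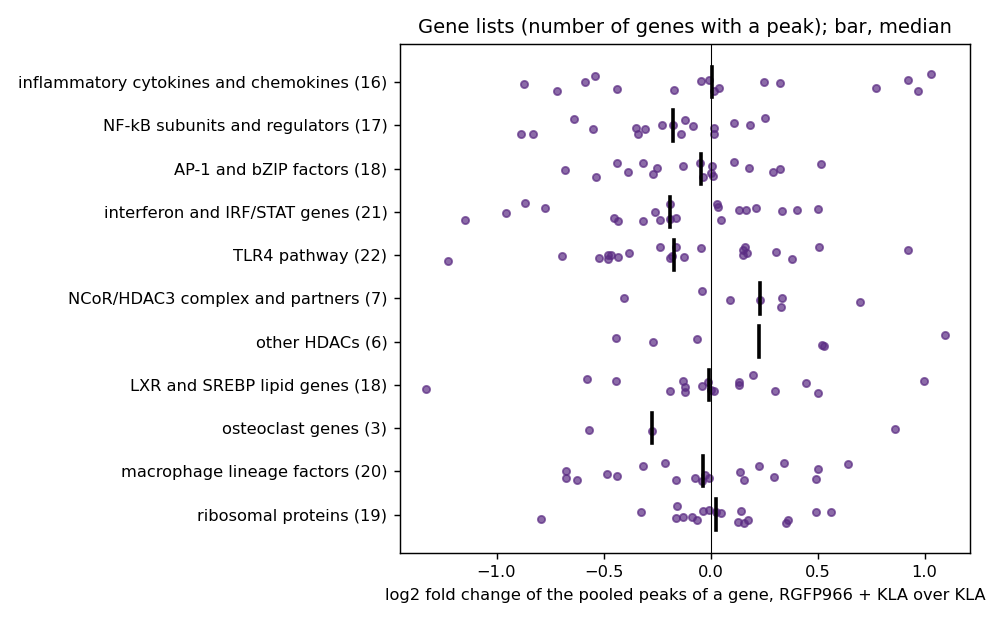
Log2 fold change of the pooled peaks of each gene, RGFP966 + KLA over KLA (horizontal axis), for every list member with a peak (dots) and the median of each list (black bars). The medians lie between -0.27 and 0.23, with members on both sides of 0 in every list, and no gene shown was called.

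The loci used as examples in the study showed no called difference in accessibility. The study showed them by RNA-seq or ChIP-seq, which are other measures. With RGFP966 it showed Ptgs2, Cp and Il12a, and the other loci were examples for other comparisons. The Ptgs2 promoter, of the gene for cyclooxygenase 2, had 1.55 and 6.61 with Veh, 3.21 and 3.43 with KLA, and 6.42 and 7.21 with RGFP966 + KLA (6 and 4 against 13 and 14 tags, 1.03 ± 0.49, adjusted p = 0.326). The peak 2932 bp upstream of Cp, which encodes the copper carrier ceruloplasmin, had 0.775 and 1.65, then 17.6 and 19.7, then 10.4 and 14.4 (-0.58 ± 0.28, adjusted p = 0.351). At both the conditions did not overlap, in opposite directions, as in 25.7% of all peaks on the higher side and 20.1% on the lower side. The Ptgs2 peak, like the Il12a and Abca1 peaks named next, was in the RGFP966 + KLA set alone. The Cp peak was in the KLA and RGFP966 + KLA sets. A choice through RGFP966 + KLA alone favours higher values there, so nothing is read from the contrast of Ptgs2 and Cp. The Il12a peak nearest the TSS had 3.74 and 6.85 against 4.94 and 6.18 (0.16 ± 0.44), the Abca1 promoter peak 6.95 and 6.00 against 6.42 and 5.15 (-0.18 ± 0.41), and the Scd2 peak 9.62 and 8.57 against 10.9 and 10.3 (0.20 ± 0.34). No merged peak was assigned to Acp5 or Ocstamp.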

How the data were processed

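Chromatin accessibility was measured by single-end ATAC-seq in WT BMDMs, with 2 libraries each at Veh, KLA and RGFP966 + KLA. The authors aligned the reads with Bowtie2 (mm10), found peaks in HOMER, reduced them to IDR peaks from the 2 best correlated samples per condition, joined the 3 condition sets and counted tags with annotatePeaks (-noadj, at most 3 tags per position). Tool versions are not given in the sources used here. The deposited counts are raw whole tags per merged peak and library, not normalized. The submitters' annotation gave the nearest gene, its distance and the IDR sets. All 6 per-sample columns of the WT table were used, 0 were left out, and the table of NCoR f/f libraries was not used here.

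The quasi-likelihood test of edgeR 4.0.16 (R 4.3.3) was fitted to all 6 WT libraries in 1 model, with the total tags in peaks as library size and no covariate. A minimum of 4 tags in some library was set, which all 9698 peaks passed. A call needed an adjusted p (Benjamini-Hochberg) under 0.05 and a fold change over 2. The SE is the log2 fold change divided by the root of the F statistic. Tags of peaks with the same nearest gene were summed and tested alike over 6841 genes. The tests were tested on simulated tags with known changes. Depth ran from 116733 to 202523 tags in peaks, and the median peak held 10 to 17 tags per library. The replicates of a condition differed by more than sampling noise over the peaks of the Veh set (chi-square per degree of freedom 1.19 for KLA and 1.07 for RGFP966 + KLA) and were kept as separate libraries. All WT library names carry the same library date.

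The members and gene lists were chosen with earlier results of these data known. Named are every called peak and called gene, the 4 members of each list with the smallest p in the pooled test (a few of which are not reported here), the loci the study shows as examples, and, for sequences, the 3 higher and 3 lower called peaks with the smallest p outside chromosome 18. Motifs were counted on both strands in 200 bp at the peak centre of 9527 peaks on chromosomes 1 to 19, X and Y of GRCm38, with pysam 0.24.0 in Python 3.11.15. Alternatives were TMM and relative log expression factors, all tags as library size, loess (limma 3.58.1) and GC offsets, DESeq2 1.42.0, filters on tags, only the 4 compared libraries, a replicate block, a fold of 1.5, each library left out, other choices of pooled peaks, 1 kb promoters and, chosen after seeing the data, only chromosomes 1 to 19, X and Y.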

Additional observations from a re-analysis of the deposited data

How the results depend on the processing

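With 10 to 17 tags in the median peak and 2 libraries in each arm, counting error limits every value. The cause of the changes named here was not tested. Counts are given as higher and lower. For peaks (23 and 10 with all libraries), library sizes from all tags gave 47 and 6, loess offsets 18 and 73, DESeq2 with its own size factors 0 and 0 (144 at an unadjusted p under 0.05) and with total tags in peaks 0 and 0 (160), and only the 4 compared libraries 39 and 18. For pooled genes (26 and 13), all tags gave 13 and 1, loess offsets 16 and 33, both DESeq2 fits 0 and 0 (162 and 177 at an unadjusted p under 0.05), a filter of 16 tags 17 and 9, peaks within 100 kb 13 and 6, peaks of the Veh set 0 and 1 (410), promoter peaks 5 and 3, and distal peaks 44 and 17. For peaks of the Veh set (2 and 2), TMM factors gave 2 and 5, all tags 2 and 1, and loess offsets 7 and 9. Leaving out each library in turn, peaks ran from 0 to 40 and from 0 to 20, pooled genes from 0 to 26 and from 0 to 13, and peaks of the Veh set from 0 to 7 and from 0 to 6. The difference in promoter share, -0.98 points, ran from -1.62 to -0.33 with a library left out, and was 0.60, of the other sign, in the peaks of the Veh set.

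With the replicate number as a block, 38 peaks were higher and 18 lower, the Veh set had 8 and 6, and 25 and 12 genes were called. The deviations of same-numbered KLA and RGFP966 + KLA libraries correlated at 0.02 across peaks. With so few tags per peak these deviations are mostly counting error. The value therefore cannot tell whether same-numbered libraries were paired. All 33 called peaks were called again under the block, and 36 of the 39 genes.

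Of the 33 called peaks, 32 were called again with TMM factors, 28 with all tags, 26 with GC offsets, 20 with loess offsets and 0 with DESeq2, and none changed direction. Of the 39 genes the counts were 36, 14 and 27 for TMM, all tags and loess offsets. Pooled values of genes not called reversed for Insig1 with only distal peaks (0.026) and for Rps24 with only peaks within 100 kb or only promoter peaks (-0.13 in each). Nfkb1 was called at a fold of 1.5 (-0.89) and without RGFP966 + KLA replicate 2 (-1.01), and Isg20 with loess offsets (-1.72). Without any filter on tags, and on chromosomes 1 to 19, X and Y alone, a setting chosen after seeing the data, the counts of peaks and genes were 33 and 39 as before.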
